A study of Mus musculus with 2 samples.

Results

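Among transferred OTII CD4 T cells from mouse spleen, 80 of 735 cells (10.9%) had Cxcr5 RNA above a threshold and Tnfrsf9 RNA below it, and are called Cxcr5-positive cells here. They were selected on single-cell read counts scaled to 1000000 reads per cell (CPM), with Cxcr5 at 10 CPM or more and Tnfrsf9 under 10 CPM. OTII cells bear a transgenic receptor specific for ovalbumin. The question of the study was whether IL-13 signals matter for T follicular helper (TFH) cells. Control hosts were C57BL/6 mice, pooled from 2 animals, and gave 38 of these cells among 368. The other pool, called deleted hosts, came from 3 mice labelled IL13Ra1f/f, CD11cCre/+ and gave 42 among 367. CD11c-Cre acts mainly in dendritic cells, so the deletion was aimed at host cells, and the sorted T cells give no check of it. The labels name neither an age of the hosts nor a marker of the transferred cells. Both pools were taken on day 7 after CAS and a second priming, an abbreviation that the labels leave unexplained. The sort took living Vb5.1-5.2+ CD4+ cells, so host CD4 cells with that receptor chain could pass as well.

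CXCR5 is the receptor for CXCL13 and draws T cells toward B cell follicles. TFH cells are the CD4 T cells that meet B cells there, and BCL6 is the transcription factor that holds their programme in place. PD-1 (Pdcd1) and ICOS are surface receptors of these cells, TOX2 is a nuclear factor that supports BCL6 activity, and IL-21 and CD40 ligand are signals they give to B cells. Leaving the T zone goes with loss of CCR7, of PSGL-1 (Selplg) and of S1PR1, the receptor by which lymphocytes leave the organ. KLF2 is a transcription factor that keeps S1pr1 expressed and restrains TFH differentiation. Tnfrsf9 encodes 4-1BB, a receptor of recently activated T cells.

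Cells were counted on 8 plates, 4 per pool, and each plate held 8 to 12 Cxcr5-positive cells. Their share of a plate's cells was 8.70% to 13.04% over all 8 plates. Over a pool the share was 10.3% in control hosts (exact 95% interval 7.41 to 13.9) and 11.4% in deleted hosts (8.37 to 15.2). The intervals overlap, and with 1 pooled sample per group no test between pools was possible. The 4 plates of each pool held cells of the same mixed animals, so no spread between plates given here is one between replicate animals. Each plate held other cells, so the spread mixes technical differences with differences between cells. The comparison cells were the 546 cells with both genes under 10 CPM, 284 from control and 262 from deleted hosts. A further 22 cells had both genes at 10 CPM or more, and 87 had Tnfrsf9 only. No plate and well name occurred more than once, and 0 cells had the same counts as another cell.

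The Cxcr5 level chose the members and is given as a description. It ran from 10.5 to 3900 CPM, with a median of 916 and quartiles of 536 and 1329. The median was 911 CPM for the control pool and 956 CPM for the deleted pool. Few cells lay near the threshold, since 74 of the 80 were at 100 CPM or more. The members closest to it had 10.5, 11.2 and 15.3 CPM, and the comparison cells closest to it had 9.23, 5.42 and 5.41 CPM. Low Cxcr5 counts were common among the comparison cells, of which 289 had at least 1 Cxcr5 read, with a median over all 546 of 0.507 CPM. Cxcr5 lies on chromosome 9 at 44511787 to 44526444 (mm10).

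**Figure D1:**
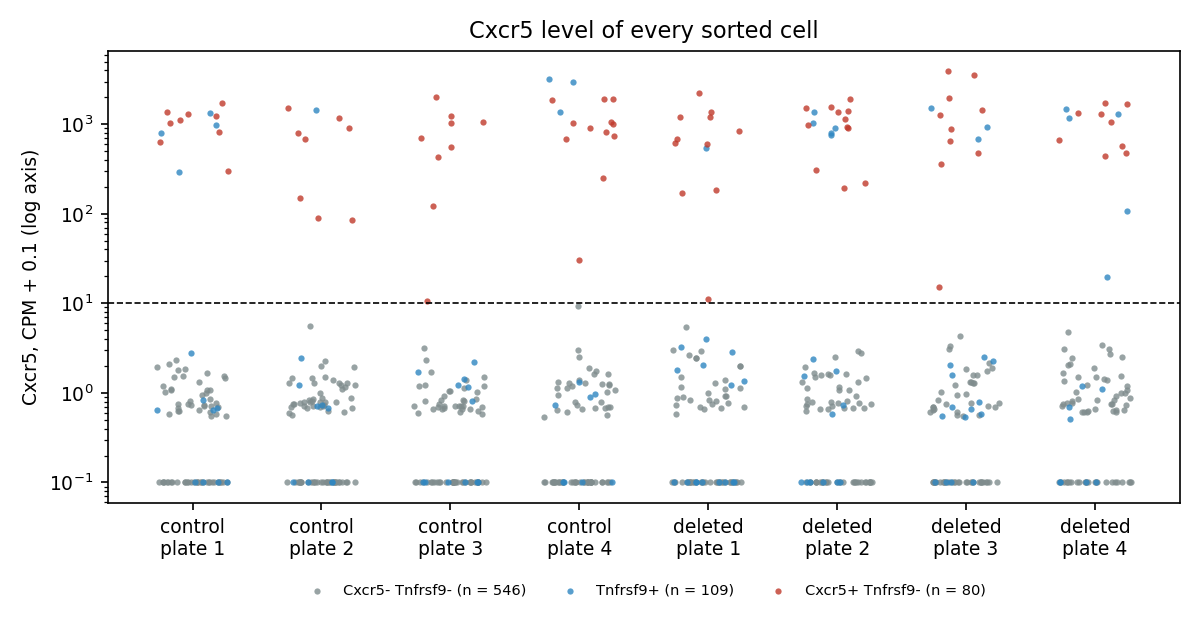
Cxcr5 level of each of 735 cells (CPM plus 0.1, log axis) on the 8 plates, with the threshold of 10 CPM as a dashed line and cells coloured by class. The Cxcr5-positive cells lie well above the threshold on every plate, apart from 4 cells between 10.5 and 30.6 CPM.

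Cxcr5-positive cells had more detected genes than their neighbours, a difference that touches every share below. The median number of genes with at least 5 reads was 1876 against 1527 in control hosts and 1735.5 against 1482.5 in deleted hosts. At an equal depth of 200000 reads per cell it was 2222.5 against 1998 and 2136 against 2010 genes with at least 1 read. With the cells of a plate ranked by detected genes and split into 3 parts, the member share in control hosts was 3.33%, 6.45% and 21.0% from the lowest to the highest. In deleted hosts it was 5.83%, 8.20% and 20%. Shares are therefore also given for cells at or above their plate's median of detected genes, which left 60 Cxcr5-positive and 231 comparison cells. Positive cells of a gene had 10 CPM or higher, provided the cell also reached 5% of that gene's plate mean.

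The TFH label was set beside Bcl6, Pdcd1, Icos and Tox2, none of which took part in the selection. These genes were named with earlier results of these data known, so their values are a description and not an independent check. Of the 80 Cxcr5-positive cells, 54 were positive for at least 1 of these genes, 24 (30.0%, exact 95% interval 20.3 to 41.3) for at least 2, and 5 for all 4. The other 26 had none of them. Among comparison cells, 62 of 546 (11.4%, 8.82 to 14.3) had at least 2. In the gene-rich cells alone the shares were 35.0% and 19.0%, and thinned to equal depth they were 29.1% and 11.4%. The summed level of the 4 genes was 757 against 342 CPM in control and 811 against 427 CPM in deleted hosts. Most single cells lacked most of the markers, so the cells are called by Cxcr5 and not TFH cells. A gene with no read in a cell may still be expressed, since capture in single cells is incomplete.

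Tox2 was higher in Cxcr5-positive cells on all 8 plates. Its summed level in them was 61.5, 160, 30.9 and 68.1 CPM on control plates 1 to 4, and 269, 72.3, 65.6 and 145 CPM on deleted plates 1 to 4. In comparison cells it was 0.207, 10.4, 11.5 and 15.8 CPM, and 32.8, 25.4, 41.5 and 11.8 CPM. The ranges of the classes did not overlap in deleted or in control hosts. The log2 ratio of the classes, taken on CPM plus 1 and averaged over the pools, was 2.57 (2.86 in control and 2.28 in deleted hosts). It rested on 14 positive cells of 80 (17.5%) against 20 of 546 (3.66%), and 1 cell of deleted plate 1 gave 31.8% of its reads in the members. Without the highest cell of each class and pool the ratio was 2.15, and in gene-rich cells it was 2.04. Tox2 lies on chromosome 2 at 163203058 to 163324172.

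Pdcd1 was higher on 6 of 8 plates. Members had 72.2, 0.405, 479 and 306 CPM on control plates 1 to 4, and 363, 297, 69.9 and 708 CPM on deleted plates 1 to 4. The comparison cells of the same plates had 135, 106, 86.5 and 32.0 CPM, and 195, 107, 45.8 and 102 CPM. Control plates 1 and 2 went the other way, and the classes overlapped in both pools. The pool values were 233 against 89.7 CPM in control and 352 against 110 CPM in deleted hosts, a log2 ratio of 1.52 that was 1.05 without the highest cell of each class and pool. Only 15 of 80 Cxcr5-positive cells (18.8%) were Pdcd1-positive, against 36 of 546 (6.59%), and in gene-rich cells the shares were 21.7% and 9.52%. Pdcd1 lies on chromosome 1 at 94038305 to 94052553.

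Icos and Bcl6 differed less. Icos was at 386, 570, 341 and 373 CPM in members of control plates and 374, 253, 232 and 333 CPM in those of deleted plates. Its comparison values were 363, 121, 242 and 144 CPM, and 238, 285, 262 and 299 CPM, so the classes overlapped in both pools, narrowly in control hosts. The log2 ratio was 0.90 in control and 0.12 in deleted hosts. Icos-positive cells made up 42.5% of members and 27.7% of comparison cells, but 48.3% and 41.6% among gene-rich cells. Bcl6 had 42.0 against 26.5 CPM in control and 26.0 against 16.6 CPM in deleted hosts, a log2 ratio of 0.63, with 6 of 8 plates higher. It was found in 31 of 80 members (38.8%) and 112 of 546 comparison cells (20.5%), and in 40.0% and 24.2% of gene-rich ones. Icos lies on chromosome 1 at 60960773 to 61000322 and Bcl6 on chromosome 16 at 23965050 to 23988866.

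Across all genes the classes were tested with edgeR's quasi-likelihood test on 4 sums of reads, 1 per pool and class, with the pool as block. Cxcr5 and Tnfrsf9 were left out of the calls because they chose the cells. No gene passed a Benjamini-Hochberg adjusted p under 0.05 among 12676 tested, 0% higher and 0% lower. The fit had 1 residual degree of freedom, and 219 genes were higher and 961 lower at an unadjusted p under 0.05. DESeq2 on the same 4 sums, also with 1 residual degree of freedom, called 162 higher and 751 lower of 14991. Sums per plate in edgeR called 29 higher and 146 lower of 9318, with p-values that are too small because plates are technical splits. The SE values given next were derived from the fold change and the F statistic of the fit on 4 sums, and cover no spread over plates or cells. For Pdcd1 the fitted log2 fold change was 1.68 ± 0.23 (SE), for Tox2 2.80 ± 0.51, for Icos 0.67 ± 0.28 and for Bcl6 0.81 ± 0.87. Their edgeR adjusted p-values were 0.536, 0.536, 0.614 and 0.940, so all values of this section describe these pools and passed no test.

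**Figure D2:**
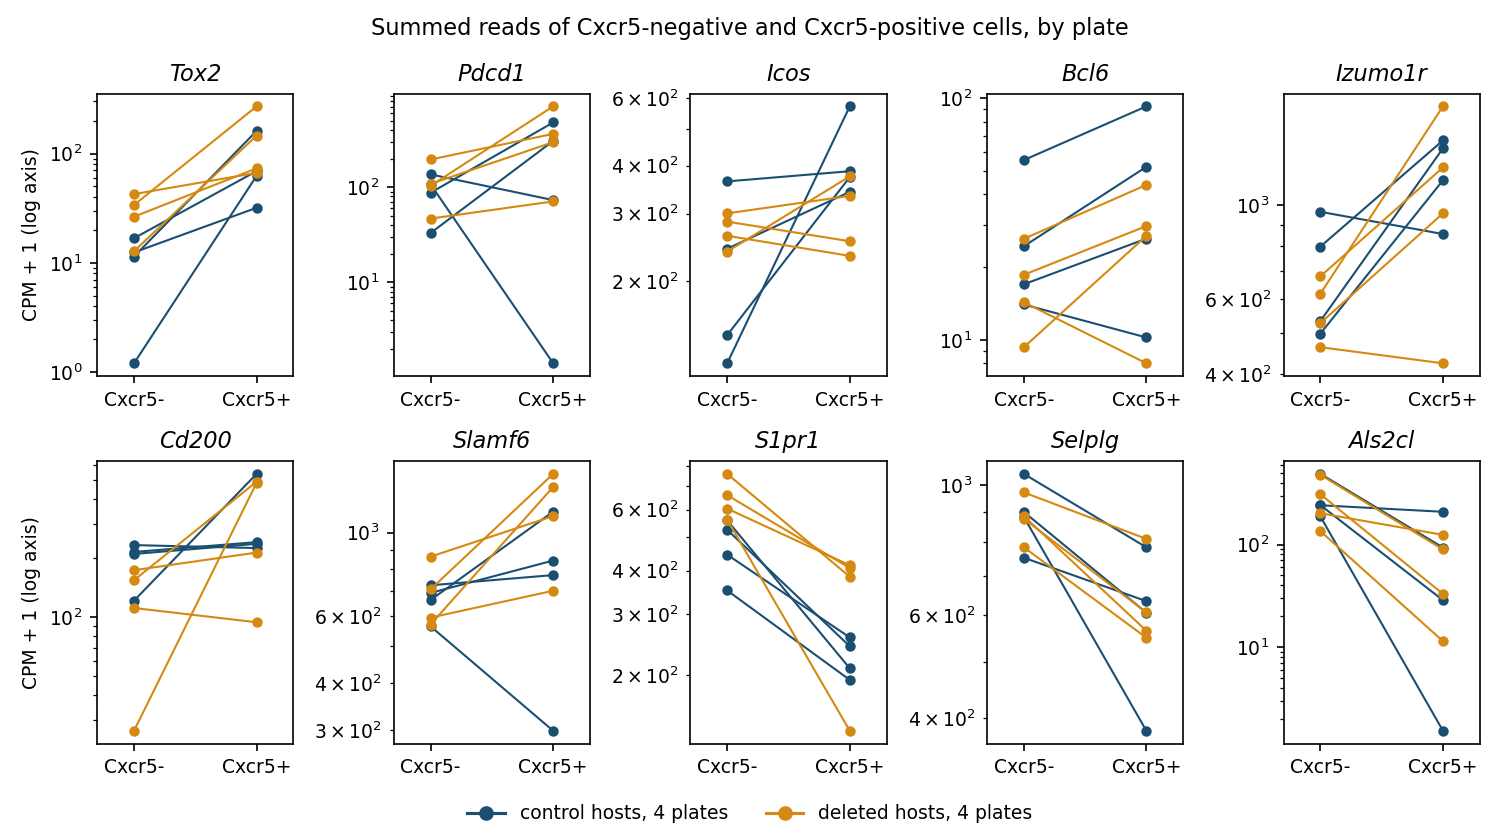
Summed level of 10 genes in Cxcr5-negative and Cxcr5-positive cells of each plate (CPM plus 1, log axes), with a line joining the classes of a plate and colours for the pools. All 8 lines go up for Tox2 and down for S1pr1, Selplg and Als2cl, while Pdcd1 goes up on 6 of 8 plates.

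Direction alone gives the background for the gene lists. Of 9825 genes at 5 CPM or more in either class, 20.7% were higher in Cxcr5-positive cells in both pools and 31.2% were lower in both. The median log2 ratio of these genes was -0.16, and of genes at 100 CPM or more it was 0.00. The tilt toward lower values was seen with weakly expressed genes included. A TFH programme list had 37 measured genes besides Cxcr5. Of these, 21 were higher in both pools, 3 (Ascl2, Lef1 and Zfp831) were lower in both, and the median log2 ratio was 0.51. It was 0.58 in control and 0.62 in deleted hosts. The list was drawn up with earlier results of these data known and is not independent evidence.

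Within the TFH list, 6 genes were at least 2-fold higher in both pools, namely Tox2, Pdcd1, Il21, Sostdc1, Angptl2 and Rgs16. Il21 stood at 33.2 CPM in members and 0.0137 CPM in comparison cells of control hosts, and at 36.9 and 2.34 CPM in deleted hosts. It was present in 8 of 80 members (10%, 4.42 to 18.8), 4 from each pool, and in 1 of 546 comparison cells (0.183%, 0.00464 to 1.02). Sostdc1, a secreted antagonist of BMP and Wnt signals, was present in only 4 members and 2 comparison cells. Its log2 ratio of 3.10 became -0.45 without control plate 3. Angptl2 was present in 6 members and 4 comparison cells. In control hosts it rested on 1 member of plate 4, and members of the other 3 control plates were at 0 CPM. Rgs16, a regulator of G protein signalling, was present in 5 members, and its ratio of 2.14 became -0.34 without control plate 2.

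Genes found in many cells gave smaller but broader differences. Izumo1r, the folate receptor FR4 of anergic and follicular CD4 cells, had 1180 against 695 CPM in control and 1068 against 577 CPM in deleted hosts. It was positive in 62 of 80 members (77.5%) and 264 of 546 comparison cells (48.4%), and in 83.3% and 60.6% of gene-rich ones. Cd200, an inhibitory ligand of TFH cells, had 308 against 194 and 330 against 119 CPM, with positive shares of 55.0% and 21.1%, and 55.0% and 29.0% in gene-rich cells. It was higher on 6 of 8 plates. In control hosts plate 3 set the difference, at 539 against 121 CPM, while the other 3 plates had 225 to 241 against 210 to 233 CPM. Slamf6, a SLAM family receptor, was higher on 7 of 8 plates with a log2 ratio of 0.49. Its shares were 71.2% and 55.9%, and 80% and 66.7% in gene-rich cells. Tbc1d4, a Rab GTPase activating protein, was higher on 7 of 8 plates with a log2 ratio of 1.40 and shares of 35.0% and 11.2%, or 40% and 20.3% in gene-rich cells. The CD30 ligand gene Tnfsf8 was also higher on 7 of 8 plates, at 173 against 111 and 193 against 89.5 CPM. Cd40lg differed little over both pools, with 28.7% of members and 21.4% of comparison cells positive, and 35% and 31.2% of gene-rich ones. By pool, its shares were 21.1% against 22.2% in control hosts and 35.7% against 20.6% in deleted hosts. The TFH transcription factor gene Batf, which encodes an AP-1 family protein, was at 143 against 76.8 and 109 against 68.3 CPM, and Maf, which promotes Il21, at 35.0 against 22.5 and 32.9 against 27.1 CPM. The ratio of Maf was 0.44, and -0.49 without the highest cells. Sh2d1a, the adaptor SAP of the SLAM receptors, was higher on 6 of 8 plates with a log2 ratio of 0.49. Lef1, a partner of TCF1, was lower on 7 of 8 plates with a ratio of -0.43, or -0.05 in gene-rich cells. Tcf7, which encodes TCF1, was near equal at 1869.7 against 1784 CPM in control and 1869.9 against 1993 CPM in deleted hosts.

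Some TFH genes were rare or not detected in the Cxcr5-positive cells. Ascl2, an early inducer of Cxcr5, was positive in 0 of 80 members, which allows up to 3.75%, and in 18 of 546 comparison cells (3.30%). Il4 was positive in 2 members, both from control hosts. Foxp3, which defines regulatory T cells, was positive in 0 of 80 members, which allows up to 3.75%, and in 9 of 546 comparison cells (1.65%). Among the 22 cells with Cxcr5 and Tnfrsf9, which the selection left out, 2 were Foxp3-positive (9.09%, 1.12 to 29.2). Prdm1, the BCL6 antagonist BLIMP-1, was positive in 0 of 80 and in 4 of 546. The proliferation gene Mki67 was positive in 4 of 80 and 4 of 546.

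The other side of the comparison was a lower level of genes of naive, resting and circulating T cells. Of 23 measured genes in that list, 0 were higher in both pools and 18 were lower in both, with a median log2 ratio of -0.74. It was -0.84 in control and -0.64 in deleted hosts. S1pr1 was at 193, 208, 241 and 256 CPM in members of control plates and at 406, 414, 137 and 383 CPM in those of deleted plates. Comparison cells had 350, 558, 524 and 444 CPM, and 659, 603, 560 and 760 CPM. Members were lower on all 8 plates, with no overlap within either pool and a log2 ratio of -0.99. S1pr1 was nevertheless positive in 56 of 80 members (70.0%), against 482 of 546 comparison cells (88.3%), and in 61.7% and 84.4% of gene-rich ones.

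Klf2 was at 91.1 against 237 and 207 against 294 CPM, with shares of 57.5% and 76.9%. Txnip, a brake on glucose uptake in resting cells, had a log2 ratio of -1.23 and was lower on 7 of 8 plates. Selplg was lower on all 8 plates, at 611 against 896 and 631 against 874 CPM. Als2cl was lower on all 8 as well, with a log2 ratio of -1.86. Igfbp4, a naive T cell gene, was present in 1 member against 37 comparison cells, and Satb1, a chromatin organiser of T cells, was lower on all 8 plates. Ccr7 was lower on all 4 control plates without overlap and on 3 of 4 deleted plates with overlap, at 593 against 1069.6 CPM in control and 1084 against 1159 CPM in deleted hosts. In 20 measured genes that oppose the TFH programme, 9 were lower and 4 higher in both pools, with a median of -0.34. Il2rb and Cxcr3, receptors of effector cells, were among the 4 higher ones, with log2 ratios of 0.68 and 1.15 (0.13 and 0.28 in gene-rich cells), and the others were Eomes and Gpr183.

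Among genes at 50 CPM or more, 0.403% (19 of 4712) were higher in the members on all 8 plates and 1.57% (74) were lower on all 8. The TFH list gave 1 of 27 such genes in the higher group, Tox2. The naive list gave 4 of 20 in the lower group, namely S1pr1, Satb1, Igfbp4 and Als2cl. Plates held 8 to 12 members against 64 to 74 comparison cells, so a gene found in few cells is often missed in the members of a plate. Beside Tox2, the largest ratios in the higher group were of Cebpb (1.94), Bcl2a1b (1.77), Pdk3 (1.75), Sypl (1.38), Prdx2 (1.05), Rap1a (1.04) and Atg101 (0.94), on the log2 scale. Cebpb encodes a bZIP transcription factor, Pdk3 a pyruvate dehydrogenase kinase, Prdx2 a peroxiredoxin and Rap1a a GTPase of integrin activation. Rap1a was the broadest of these, positive in 47 of 80 members and 142 of 546 comparison cells. Bcl2a1b has near-identical paralogs, so its reads are uncertain. The largest ratios in the lower group were of Llgl1 (-5.62), Nnt (-5.21), H2-T24 (-4.05), Igfbp4 (-3.70), Zbtb9 (-3.67), Galnt10 (-3.59), Hdac2 (-3.55) and Ets2 (-3.46). Each of these was positive in at most 4 members.

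**Figure D3:**
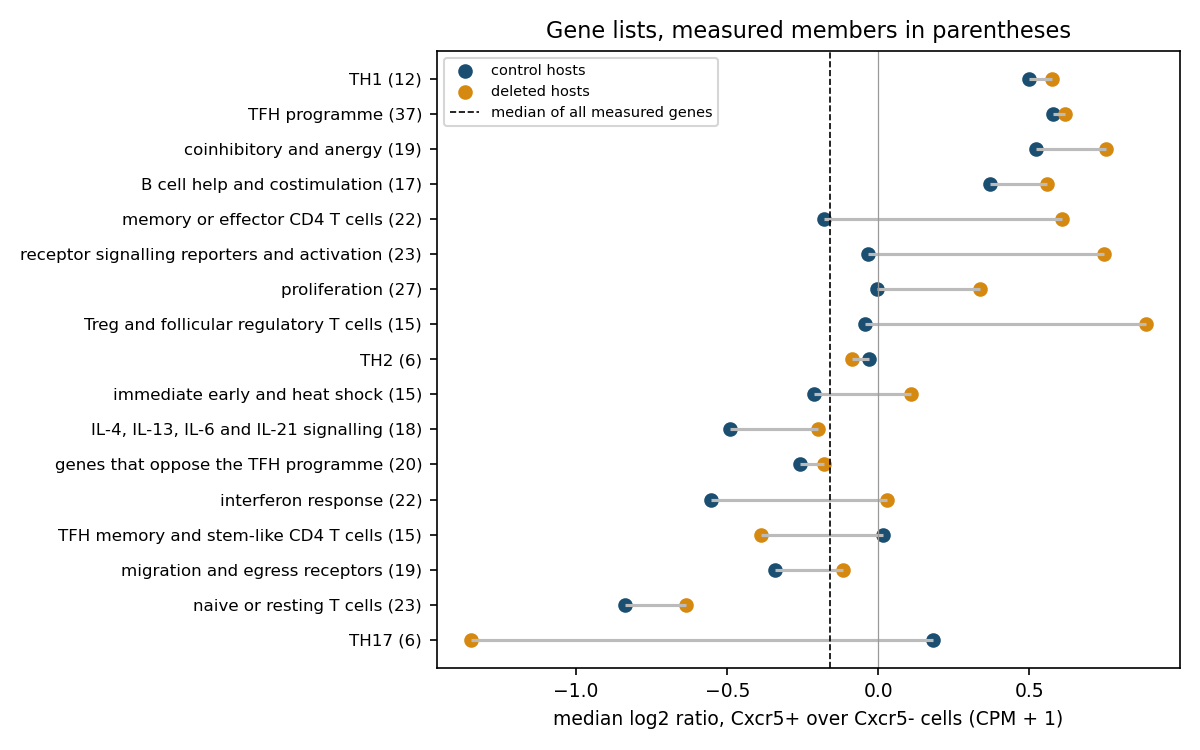
Median log2 ratio of Cxcr5-positive over Cxcr5-negative cells (CPM plus 1) for 17 gene lists, by pool, with the number of measured genes in parentheses and the median of all measured genes as a dashed line. The TFH list lies at 0.58 and 0.62 and the naive list at -0.84 and -0.64, while the TH17 and Treg lists differ widely between the pools.

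Coinhibitory and anergy genes, which brake T cell activation, were higher in both pools for 10 of 19 and lower for 1, with a median log2 ratio of 0.49. This median was -0.09 without the highest cell of each class and pool. Beside Pdcd1, Cd200 and Izumo1r, the coinhibitory receptor Tigit had a log2 ratio of 1.37, with 14 of 80 members and 15 of 546 comparison cells positive. Genes of B cell help and costimulation were higher for 9 of 17 and lower for 1, with a median of 0.49. Genes of memory or effector cells were higher for 10 of 22 and lower for 4. Their median of 0.34 was -0.18 in control and 0.61 in deleted hosts, so its sign depended on the pool, and it was -0.06 in gene-rich cells. Cd44, the adhesion receptor of antigen-experienced cells, was positive in 25.0% of members and 12.6% of comparison cells, but in 28.3% and 20.8% of gene-rich cells. Activation genes had a median of 0.30, again with opposite signs in the pools (-0.03 and 0.75), and -0.32 without the highest cells. The proliferation list had a median of 0.18, with 4 of 27 genes higher in both pools and 3 lower, and was -0.68 without the highest cells.

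Lists of the other helper types differed in direction. TH1 genes were higher in both pools for 6 of 12 and lower for 3. Their median was 0.50 in control and 0.58 in deleted hosts, near the 0.58 and 0.62 of the TFH list. Over the pool means it was 1.11, which became 0.23 without deleted plate 2. Nkg7, a cytotoxic granule gene, contributed to it with 8 positive members and a ratio that became -0.47 without that plate. TH2 genes were higher for 2 of 6 and lower for 2, with a median of 0.10 over the pool means and -0.03 and -0.09 in the pools. Among them Gata3, the TH2 transcription factor, had a log2 ratio of 0.45. TH17 genes were higher for 1 of 6 and lower for 3, with a median of -0.79 and values of 0.18 and -1.35 in the pools. The Treg list had 6 of 15 genes higher and 3 lower and a median of 0.15, or -0.39 without the highest cells. Interferon response genes were lower in both pools for 10 of 22 and higher for 5. Immediate early and heat shock genes were evenly split, 3 of 15 each way. Memory and stem-like TFH genes were lower for 7 of 15 and higher for 4.

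Cytokine signalling genes were also on the lower side. In the IL-4, IL-13, IL-6 and IL-21 signalling list, 11 of 18 genes were lower in both pools and 1, Batf, was higher, with a median of -0.31. Il4ra is the chain common to the IL-4 receptors, one of which also binds IL-13. It was at 20.5, 1.62, 74.4 and 242 CPM in members of control plates and 77.3, 235, 80.3 and 76.7 CPM in those of deleted plates. In comparison cells it was at 286, 291, 333 and 254 CPM, and 325, 267, 213 and 163 CPM. Members were lower on all 8 plates, and their level varied widely between plates. Only 10 of 80 members and 108 of 546 comparison cells were Il4ra-positive, and the log2 ratio of -1.22 was -2.03 without control plate 4. The IL-27 receptor gene Il27ra was lower on 7 of 8 plates, at 289 against 449 and 403 against 484 CPM.

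Within the 80 cells, some TFH genes were more frequent among the Pdcd1-positive cells and others were not. A split by Pdcd1 was chosen after the values were seen and is given as a description. The 15 Pdcd1-positive members, 8 from control and 7 from deleted hosts, included 8 of the 14 Tox2-positive cells, 5 of the 8 Il21-positive cells and 11 of the 31 Bcl6-positive cells. They also held 5 of 7 cells positive for Asb2, a ubiquitin ligase subunit, and 4 of 6 Angptl2-positive cells. Of the 15, 1 cell of deleted plate 1 held only 178914 reads and 658 detected genes. Its Cxcr5, Pdcd1, Bcl6 and Cd44 were each at 11.2 CPM, so its calls rest on very few reads, including its place among the 24 cells with at least 2 TFH markers. Cd40lg was present in 9 of the 15 and in 14 of the other 65. Cd44 was present in 8 of 15 and 12 of 65. Izumo1r was present in 11 of 15 and 51 of 65, at 954 against 1162 CPM, Maf in 2 and 7, Sostdc1 in 1 and 3, Icos in 9 and 25, and Cd200 in 10 and 34. In the other direction, Ccr7 was present in 5 of 15 and 32 of 65, Klf2 in 5 of 15 and 41 of 65, and S1pr1 in 7 of 15 and 49 of 65, at 62.5 against 334 CPM. The level of Cxcr5 itself was similar, with medians of 907 and 992 CPM. Pdcd1-positive members had more detected genes, with a median of 2064 against 1739. Its part in these counts was not tested. All 8 Il21-positive members were also Icos-positive, 6 were Bcl6-positive and 7 Cd40lg-positive.

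The 36 Pdcd1-positive comparison cells were less often positive for some of the same genes. They also had fewer detected genes, with a median of 1680 against 2064 in the 15 Pdcd1-positive members, and its part was not tested. Tox2 was present in 5 of the 36, Il21 in 1, Asb2 in 1 and Bcl6 in 9, while S1pr1 was present in 21. Maf was present in 4 of 36 against 2 of 15, and Sostdc1 in 2 of 36 against 1 of 15, which differ little. The 22 cells with both Cxcr5 and Tnfrsf9 had Bcl6 in 14 and Pdcd1 in 5, but Il21 in 0 of 22, which allows up to 13.6%. S1pr1 was present in 9 of these 22 cells.

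**Figure D4:**
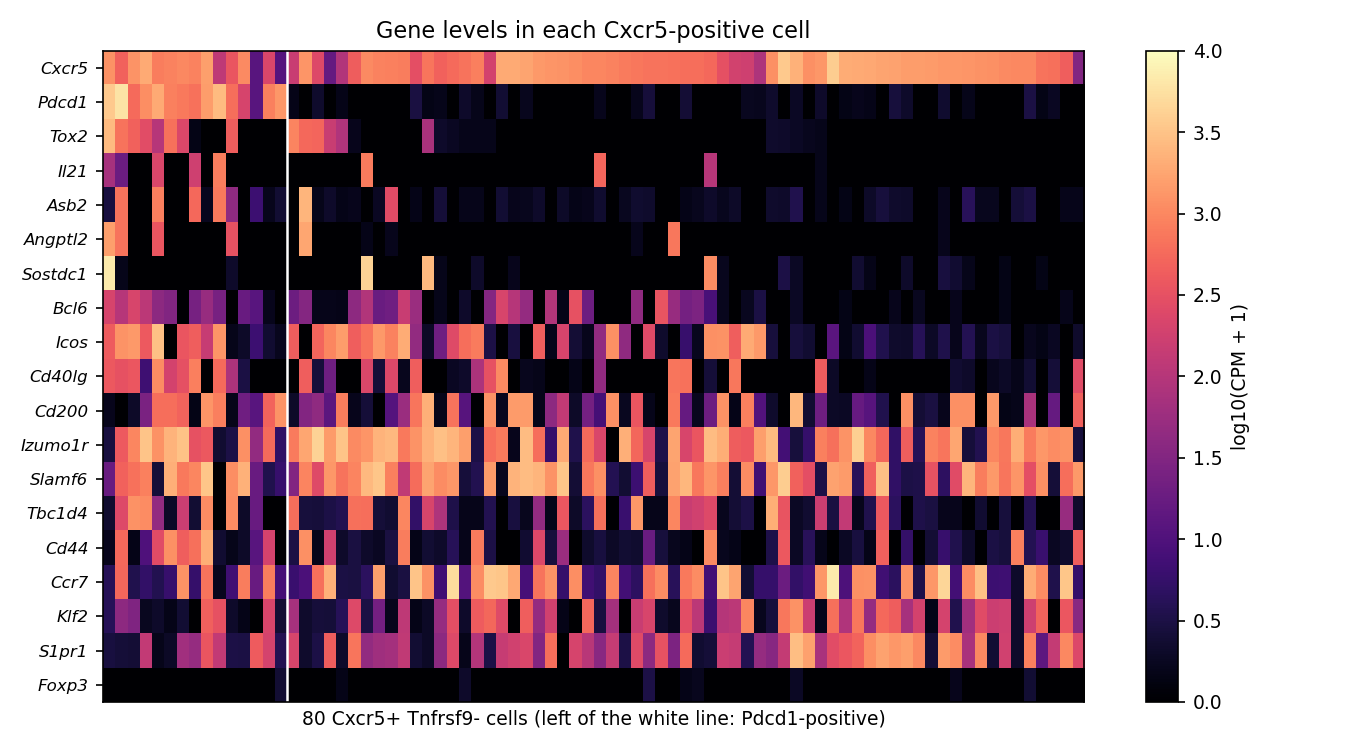
Level of 19 genes in each of the 80 Cxcr5-positive cells (colour, log10 of CPM plus 1), ordered by Pdcd1, then by the number of positive TFH markers. The 15 Pdcd1-positive cells left of the white line include 5 of 7 Asb2-positive and 4 of 6 Angptl2-positive cells. The highest cell for both genes (2393 and 1837 CPM) is Pdcd1-negative. Foxp3 is near 0 in all 80 cells.

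Between the pools, the Cxcr5-positive cells did not differ clearly in Pdcd1, Tox2, Icos, Bcl6 or Il21, or in the median of the TFH list. Single genes of that list could still differ. For 1 of them, Il6ra, every deleted plate lay above every control plate, as given below. Summed Cxcr5 was 906 CPM in members of control and 1023 CPM in those of deleted hosts, with plates at 624 to 1045 and 842 to 1223 CPM. The log2 ratio of deleted over control members was 0.59 for Pdcd1, 0.85 for Tox2, -0.45 for Icos, -0.67 for Bcl6 and 0.14 for Il21, and the plates of the pools overlapped for each. Bcl6 and Tox2 differed in the same direction in the comparison cells, by -0.64 and 1.43. At least 2 of the 4 TFH markers were present in 13 of 38 control members (34.2%, 19.6 to 51.4) and 11 of 42 deleted-host members (26.2%, 13.9 to 42.0). The TFH list had a median log2 ratio of 0.12 between the pools in members and 0.08 in comparison cells. The median of 9402 genes measured in members was -0.03.

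Genes whose plates did not overlap between the pools were counted among 7455 genes at 20 CPM or more in either pool's members. Of these, 1.72% (128) were higher and 1.66% (124) lower in deleted hosts on every plate. In the comparison cells 1.70% (123 of 7256) and 2.59% (188) did so, and only 5 genes were shared with the members in each direction. These values describe 1 pool against another, with no test.

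Tnfaip3 gave the clearest separation of a known regulator. It encodes A20, an inhibitor of NF-kappaB signalling. Members had 12.6, 1.22, 96.8 and 87.5 CPM on control plates and 1221, 568, 288 and 1125 CPM on deleted plates. It was positive in 6 of 38 control members (15.8%, 6.02 to 31.3) and 24 of 42 deleted-host members (57.1%, 41.0 to 72.3), and at equal depth in 21.1% and 56.1%. The comparison cells were separated as well, at 78.9 to 212 and 426 to 618 CPM, so this difference was not particular to Cxcr5-positive cells. Klf6, a zinc finger factor induced on activation, had 54.7 to 182 CPM in control and 359 to 1576 CPM in deleted-host members. In comparison cells it had 212 to 483 and 427 to 649 CPM, which overlap. Klf6-positive members made up 36.8% (21.8 to 54.0) and 47.6% (32.0 to 63.6), and 41.9% and 48.3% of gene-rich ones. Klf2 had 37.9 to 138 and 159 to 311 CPM in members, and overlapped between the pools in comparison cells. Its positive shares were 47.4% (31.0 to 64.2) and 66.7% (50.5 to 80.4), and 51.6% and 55.2% in gene-rich cells. Klf2 was lower than in comparison cells in both pools, by -1.37 in control and -0.50 in deleted hosts on the log2 scale.

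Il6ra, a gene of the TFH list, encodes the IL-6 receptor, through which IL-6 promotes TFH differentiation. Members had 13.4, 35.8, 11.6 and 20.1 CPM on control plates and 311, 107, 189 and 308 CPM on deleted plates, with no overlap. The comparison cells had 158 CPM in the control pool and 168 CPM in the other. Il6ra was positive in 6 of 38 control members (15.8%) and 12 of 42 deleted-host members (28.6%, 15.7 to 44.6), and 1 cell of deleted plate 1 gave 30.9% of the reads. Bhlhe40, a transcription factor of effector T cells, had 54.9 CPM in control and 329 CPM in deleted-host members, with 3 and 10 positive cells, and its plates were separated by a narrow margin (at most 111 and at least 113 CPM). For Bhlhe40, 1 cell of deleted plate 1 gave 29.2% of the reads in members. Bach2, which restrains effector differentiation, had 3.49 and 33.8 CPM in members, and 69.8 and 64.6 CPM in the comparison cells of the pools. Only 10 members reached 10 CPM of Bach2, and 1 cell of deleted plate 2 gave 38.6% of its reads in members.

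By the naming rule, the largest ratios toward deleted hosts also included Srfbp1, Fam188a, Dopey2, Ccdc88c, Sel1l, Ankrd49, Gpr132 and Atg12, with log2 ratios of 2.96 to 5.73. Toward control hosts they were Gart, Mettl6, Wdr36, Zufsp, Ccdc97, Tex10, Zfp672, Rbm10, Csnk2a1 and Apoa1bp, with -2.81 to -4.76. Gart encodes an enzyme of purine synthesis, and Sel1l a component of protein degradation at the endoplasmic reticulum. In each case between 0 and 14 members of a pool were positive. Genes higher in deleted-host members were spread over several lists, with 4 separated genes in the memory or effector list and 4 in the immediate early list. These lists had 22 and 14 genes at 5 CPM or more, while separated genes and the 1.72% above needed 20 CPM, so the shares are not directly comparable. Klf6 is in both lists and counts in each. Dusp1, a phosphatase of the immediate early response, was higher in deleted hosts by 1.43 on the log2 scale in members, with overlapping plates, and by 0.79 in comparison cells. Effects of plate and of pool cannot be told apart here.

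**Figure D5:**
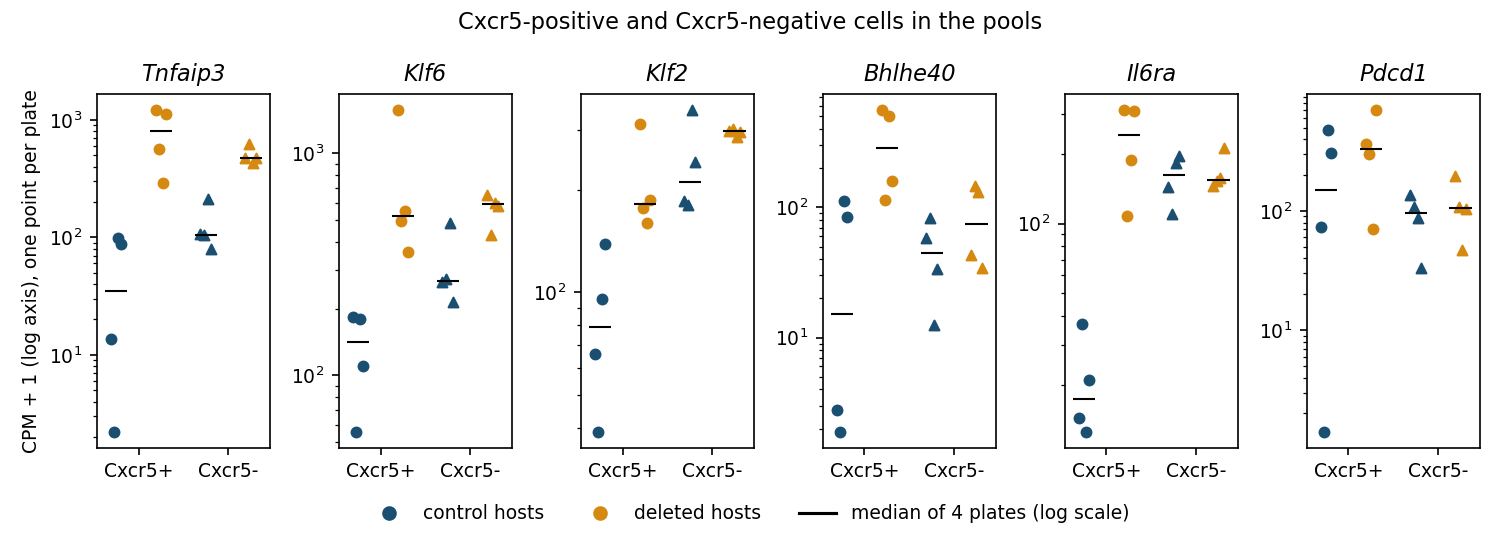
Summed level per plate (CPM plus 1, log axes) of 6 genes in Cxcr5-positive and Cxcr5-negative cells of control and deleted hosts, with the median of the 4 plates as a bar. The control and deleted plates do not overlap in Cxcr5-positive cells for Tnfaip3, Klf6, Klf2, Bhlhe40 and Il6ra, and overlap for Pdcd1.

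Markers of most other cell types were low, while summed plasma cell and natural killer genes were higher in members than in comparison cells of both pools. The 6 CD4 T cell genes with a row reached a summed 6760 CPM in members of the control pool and 6807 CPM in those of the deleted pool, against 6154 and 6499 CPM in comparison cells. The B cell genes, 11 of 14 with a row, summed to 29.4 and 41.3 CPM in members (plates 13.7 to 116) against 29.2 and 28.5 CPM. Most of this was Cd74, at 28.3 and 30.5 CPM in members against 22.2 and 22.2 CPM, positive in 25 control and 36 deleted-host members. Cd22 reached 10.4 CPM in deleted-host members through 1 positive cell. Pax5 was at 0 in members, and Ms4a1 was positive in 0 of 80 members and 0 of 546 comparison cells. Plasma cell genes summed to 253 and 190 CPM against 110 and 116 CPM, mostly from Xbp1 and, in control hosts, Irf4, which T cells also express. Natural killer and innate lymphoid genes summed to 162 CPM (plates 8.57 to 590) and 119 CPM (13.1 to 205) against 59.1 and 85.0 CPM, with Ncr1 under 1 CPM. Nkg7 was at 143 against 23.7 CPM in control and 56.3 against 31.9 CPM in deleted hosts. Klrb1c was at 0.744 against 17.2 CPM in control and 53.6 against 14.6 CPM in deleted hosts, with 0 and 5 positive members. The part of natural killer genes in the TH1 values was not tested. Dendritic cell genes summed to 96.5 and 88.9 CPM against 87.5 and 109 CPM, and macrophage genes to 17.2 and 21.0 against 23.5 and 31.7 CPM. Low levels of H2-Ab1 were widespread in both classes. It was positive in 36 control and 41 deleted-host members, and in 267 and 261 comparison cells.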

How the data were processed

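Single cells were measured by SmartSeq2, with 25 PCR cycles and no molecular identifiers named, so PCR copies count as reads and intervals cover counting error only. The deposited files hold unnormalized read counts, whole numbers for 35976 gene rows in each well. Per the submitters' processing notes, featureCounts 2.0.1 and the build mm10 were used. Aligner, annotation, strand setting and doublet handling were not given in the sources used here, so antisense and overlapping genes cannot be told apart.

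Of 736 cell wells, the 735 with 10000 reads or more were kept; 32 control wells entered no comparison and no doublet caller was run. Plates were numbered within a pool in the order of the plate labels. Cxcr5-positive cells held 64486053 reads in control and 65962927 in deleted hosts, with medians of 1694808 and 1605170 per cell. CPM of a class is its summed reads per 1000000. Log2 ratios use CPM plus 1 and are means over the 2 pools, so changes of low genes are understated. Genes of 5 CPM or more in either class were measured, and intervals of shares are exact (Clopper-Pearson, 95%). For 0 cells the limit is 3 cells of the total.

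Classes were tested with edgeR 4.0.16 (TMM, quasi-likelihood, pool as block, Benjamini-Hochberg adjustment) in R 4.3.3, with DESeq2 1.42.0 as an alternative; Python 3.11.15 was used otherwise. The fit was tested on simulated data. Alternatives changed the Cxcr5 threshold, the Tnfrsf9 gate, depth, normalization, filters, averaging and test, or left out a plate. Another 2, gene-rich cells and leaving out the highest cell of each class and pool, were added after seeing the data. Members and gene lists were chosen with earlier results of these data known. Named genes were the TFH markers, the 8 largest ratios in each direction with 1 direction on 8 of 8 plates at 50 CPM or more (since fewer than 5 genes passed the test), list genes (all of the TFH and opposing lists, and up to 4 of each other list with the largest ratio at 20 CPM or more) and the 10 largest ratios between pools among non-overlapping genes at 50 CPM or more and positive in at least 20% of the higher pool's members. Predicted genes were left out. Cd44, Satb1, Asb2, Prdm1, Klrb1c, Cd74, Cd22 and H2-Ab1 fall outside this rule and were chosen after their values were seen. Coordinates are from the RefSeq annotation of GRCm38.p6, which is mm10.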

Additional observations from a re-analysis of the deposited data

Results flagged for a closer look

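In 5 of 50 groups of 4 plates, 1 plate's value in Cxcr5-positive cells lay apart from the others, where chance flags about 1 in 20 groups. Cd200 was at 539 CPM on 1 control plate, against 225 to 241 on the others. On 1 deleted plate the median Cxcr5 level was 683 CPM against 1058 to 1075. S1pr1 was at 137 CPM on 1 deleted plate against 383 to 414, Il4ra at 235 CPM against 76.7 to 80.3, and Klf6 at 1576 CPM against 359 to 552.

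For 7 of 131 named genes, every plate of one pool was higher in Cxcr5-positive than in comparison cells and every plate of the other was lower. The difference was not tested. The log2 ratio in control and in deleted hosts was 1.32 and -1.61 for Apoa1bp, 0.38 and -2.17 for Csnk2a1, 1.06 and -3.63 for Gart, 0.94 and -1.95 for Tex10, and 1.07 and -2.81 for Wdr36. It was -2.37 and 0.60 for Atg12, and -2.73 and 2.59 for Dopey2. All 7 were among the 20 genes named for large, non-overlapping ratios between pools, a choice that favours this pattern, and the share over all genes was not computed.

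Cxcr5 reads were also found in control wells, which the comparisons did not use. A well with mBM100 in its name held 21 reads (34.9 CPM) on deleted plate 1, and another held 44 reads (31.3 CPM) on deleted plate 2. Wells named noinput or dw held at most 1.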

How the results depend on the processing

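Between the pools, no paired analysis was possible because each pool was 1 sample and their plates share no cells. Members and comparison cells share pools and plates, and their fits had the pool or the plate as block. With a threshold of 1 CPM for Cxcr5, the share of Cxcr5-positive cells was 25.3% in control and 28.3% in deleted hosts, and without the Tnfrsf9 gate it was 12.5% and 15.3%. DESeq2 called 162 genes higher and 751 lower of 14991, and edgeR on plate sums with the plate as block called 29 and 146 of 9318. All other edgeR settings called 0. The number of genes not overlapping between pools in members was 252, and became 120 at 100 CPM or more and 453 to 489 when a plate was left out, where 4 plates face 3. Over 17 settings, the log2 ratio of members over comparison cells kept its sign for 79 of 129 named genes and 11 of 17 lists, and over 16 settings the ratio between pools did for 67 of 129 and 8 of 17. Pdcd1 ranged from 0.84 to 1.79, Tox2 from 1.45 to 2.81, the TFH list from 0.31 to 0.60 and the naive list from -1.13 to -0.31. The ratio of S1pr1 was -0.31 with a threshold of 1 CPM. Irf4 was at -0.36 without deleted plate 3, and Gata3 at -0.30 and Cd40lg at -0.05 with a threshold of 1 CPM. Beside the lists given above with their values, the TH2 median was -0.22 with a threshold of 1 CPM. The causes were not tested. The number of cells, 8 to 12 per plate, limits every value for a gene found in few of them.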
